A study of Mus musculus with 44 samples.

Results

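The 9 genes described here were picked out of 55335 genes in a table of ribosome-bound RNA from mouse hippocampus because early-life exercise (ELE) exceeded the sedentary condition in both of a pair of sample sets. They are Il1rap, Gpr83, Ptgs2, Inf2, Klk8, Zfp946 and the non-coding genes 4921539H07Rik, Gm42047 and Gm35161. Of 17182 genes tested in both sets, 10 passed an unadjusted p of 0.05 and a 1.3-fold rise in each, and 9 of these are the genes described. The tenth, Nr4a1, which encodes an activity-induced nuclear receptor, is not a member. Since those sets chose the genes, their values are given as a description. The members were thus chosen by their fold change and p in the right and simultaneous libraries. The left hippocampus had no part in the choice and is the set in which exercise was tested. Its mice were not those of the right set, but their mouse numbers begin alike, and whether they were kin was not tested.

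Each library came from 1 male Emx1-NuTRAP mouse, in which Cre under the Emx1 gene switches on tagged ribosomes and nuclei in cells that express Emx1 or descend from such cells. These are mostly excitatory neurons, and progenitors and some astrocytes can carry the tag as well. ELE mice could run on a wheel in the home cage between postnatal days 21 and 41, sedentary mice were pair-housed without one, and both were killed a day after the wheel period with no memory training. Ribosome-bound RNA was purified either from both hippocampi of a mouse together with its nuclei (simultaneous isolation, SIT, 4 ELE and 4 sedentary mice) or from 1 hippocampus by itself (separate isolation, 3 ELE and 3 sedentary mice on the left and 3 ELE and 3 other sedentary mice on the right). The hemisphere of each library was taken from the study's list of mice. The sample records, read in their order, would give the opposite side for all 12 separate libraries. Mean normalised counts of the columns listed as right matched, within a relative tolerance of 1e-04, the means listed for the right comparison, used only as a key, for 358 of 358 genes, and those of the columns listed as left for 0, so the list was used.

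The 20 libraries held between 45895097 and 65767802 counts. Levels are given in CPM, counts relative to library size after scaling all libraries together. The study's SIT comparison used 3 ELE and 2 sedentary libraries, and values for SIT refer to these 5 unless all 8 are named. The 3 SIT libraries left out stood apart. Mitochondrial genes took 8.64% of counts in the sedentary mouse NT7.2.3, 9.64% in NT7.2.4 and at most 0.523% elsewhere, and 7 markers of inhibitory interneurons summed to 844 and 883 CPM in these mice, against 40.9 to 109 in the other libraries. In the ELE mouse NT6.304, 32 activity-regulated genes summed to 10100 CPM, against 2000 to 3470 in the others. On the left, the ELE mouse TG9.1.4 had the highest sum of activity-regulated genes, 3470 CPM, and of 6 astrocyte markers, 5260 CPM. Markers of microglia and endothelial cells summed to at most 8.01 and 4.58 CPM in every left library, while excitatory neuron markers summed to between 11400 and 13700 CPM. Markers of the choroid plexus varied most, at 25.5, 55.2 and 1010 CPM in left ELE and 30.9, 1030 and 1270 CPM in left sedentary libraries, and on the right at 1160 CPM in the sedentary mouse TG9.2.3 against 17.3 to 83.5 CPM in the others. In bulk RNA, fewer cells of a type and less RNA per cell cannot be told apart.

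The members do not form 1 pathway. Il1rap encodes the co-receptor that interleukin-1 receptors need in order to signal, and a neuronal form of it takes part in synapse formation. Gpr83 encodes a G protein-coupled receptor for which the neuropeptide PEN, cut from proSAAS, has been proposed as a ligand. Ptgs2 encodes cyclooxygenase-2, the inducible enzyme that starts prostaglandin synthesis and that excitatory neurons make in response to synaptic activity. Klk8 encodes neuropsin, a secreted serine protease that cleaves adhesion molecules at hippocampal synapses and takes part in early long-term potentiation. Inf2 encodes a formin that both builds and severs actin filaments, Zfp946 a zinc finger protein of little-known role, and the remaining 3 are long non-coding RNA genes to which no function is assigned here.

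All 9 lie on the plus strand, as do 50.4% of the genes tested on the left, and they are spread over 9 chromosomes of GRCm38. Il1rap spans chr16:26581704-26730117, Gpr83 chr9:14860210-14870789 and Ptgs2 chr1:150100031-150108227. Inf2 spans chr12:112588784-112615557, Klk8 chr7:43797577-43803826 and Zfp946 chr17:22424222-22456689. The lincRNA genes are 4921539H07Rik at chr3:58117053-58167616 and Gm42047 at chr8:121833247-121841178. Gm35161, at chr13:68998793-69031550, is annotated as antisense to Adcy2, an adenylyl cyclase gene, with which it shares 189 exonic bases. Klk8 shares 382 exonic bases with the antisense gene 2310002F09Rik. Counting kept the strand, so reads of such pairs were assigned apart.

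The 300 bases around the start of transcription are shown for the 3 members that hold an E-box, the motif whose share among members stood furthest from its share among all promoters. RefSeq gave such a window, 250 bases before and 50 after the start, for 7 of the 9 genes. Inf2 has 2 listed starts within 17 bases and Gm35161 has 6 within 13 bases, of which the first listed was used. Each of their other windows held the same motifs of those searched. The starts of Gm35161 lie inside the span given above. The palindromic E-box CACGTG, which reads the same on both strands, was found in 3 of those 7 windows and in 7.24% of 27025 promoters. The core of the cyclic AMP response element, TGACG on either strand, was found in Gpr83, Ptgs2 and Gm35161 and in 21% of all promoters. The full element TGACGTCA, the AP-1 site TGANTCA and the EGR site GCGTGGGCG were found in none of the 7, and in 1.88%, 7.93% and 0.625% of all promoters. A TATA box, TATAAA, was found in Gpr83 and in 14.2% of all promoters. Capitals mark the E-box and, in Ptgs2, the TGACG core on the other strand, which overlaps it. The windows are chr1:150099781-150100080, chr12:112588517-112588816 and chr17:22423952-22424251 of GRCm38.p6, all on the plus strand.
Ptgs2: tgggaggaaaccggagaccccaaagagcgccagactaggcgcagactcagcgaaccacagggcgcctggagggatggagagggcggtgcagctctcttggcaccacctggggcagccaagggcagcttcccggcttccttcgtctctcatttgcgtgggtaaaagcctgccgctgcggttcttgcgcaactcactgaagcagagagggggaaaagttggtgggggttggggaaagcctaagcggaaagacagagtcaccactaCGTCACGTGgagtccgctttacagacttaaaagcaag
Inf2: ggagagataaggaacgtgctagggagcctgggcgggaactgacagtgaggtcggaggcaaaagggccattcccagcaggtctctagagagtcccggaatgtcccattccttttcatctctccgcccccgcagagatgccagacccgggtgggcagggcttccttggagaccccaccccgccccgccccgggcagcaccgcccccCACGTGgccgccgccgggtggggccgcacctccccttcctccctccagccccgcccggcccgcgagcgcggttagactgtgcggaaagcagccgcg
Zfp946: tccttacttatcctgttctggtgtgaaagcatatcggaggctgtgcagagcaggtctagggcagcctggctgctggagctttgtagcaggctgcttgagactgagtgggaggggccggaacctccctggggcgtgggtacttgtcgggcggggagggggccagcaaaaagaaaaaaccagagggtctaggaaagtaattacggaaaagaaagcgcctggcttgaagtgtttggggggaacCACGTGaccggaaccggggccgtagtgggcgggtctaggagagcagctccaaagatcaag
The E-box lay at positions 17 to 22 after the start in Ptgs2, -46 to -41 in Inf2 and -10 to -5 in Zfp946, where negative positions lie before the start. A match is a description of the letters and was not tested as a binding site.

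To set the genes side by side, levels were divided by exonic length. In left sedentary libraries Inf2 had the highest level, 25.9 ± 7.02 CPM per kb (SD, n = 3), followed by Klk8 at 15.7 ± 0.728 and Ptgs2 at 4.93 ± 0.187. The libraries of these 3 genes did not overlap. Gpr83 at 3.06 ± 0.484, Zfp946 at 2.7 ± 0.340, Il1rap at 2.32 ± 0.0353 and Gm35161 at 2.05 ± 0.749 CPM per kb followed, each overlapping its neighbour among these 4. The lincRNAs were lowest, with 1.40 ± 0.0381 for 4921539H07Rik and 0.969 ± 0.459 for Gm42047, and overlapped each other. Even Gm35161, with the fewest reads on the left, had 90 to 183 counts per left library. In its left ELE libraries, with 111, 112 and 114 counts, the spread between mice was no larger than counting error.

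**Figure D1:**
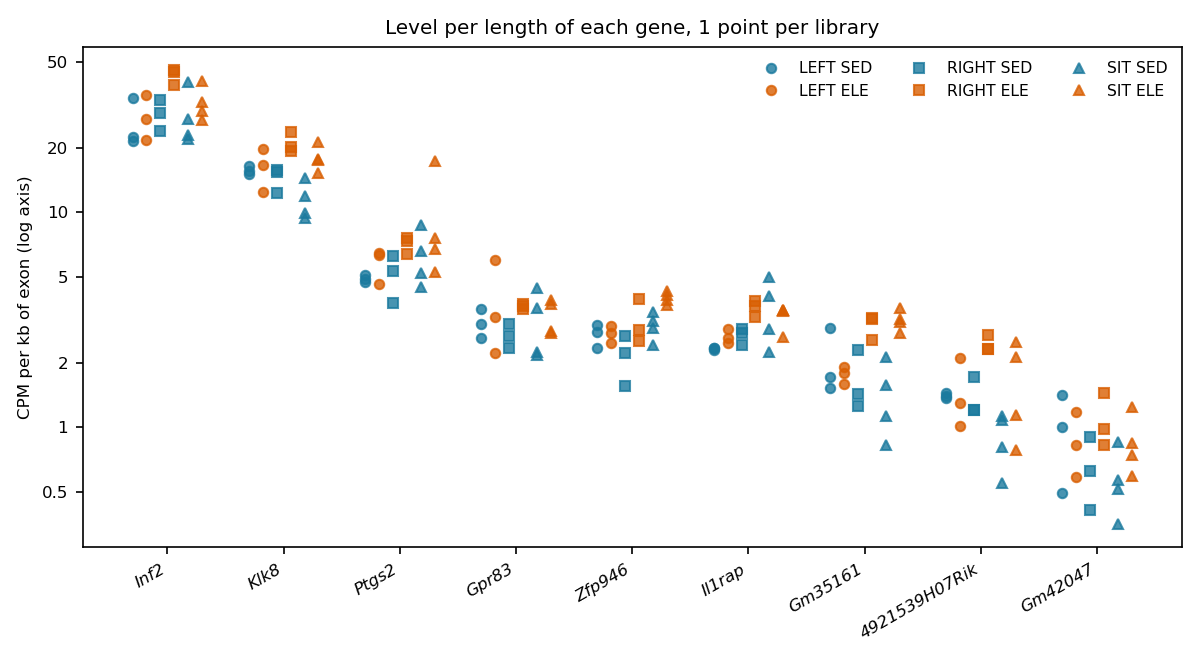
Level of each gene in CPM per kb of exon on a log axis, with 1 point per library, orange for ELE and blue for sedentary, circles for left, squares for right and triangles for all 8 SIT libraries. Inf2 and Klk8 sit above the other genes in every left library, and the lincRNA Gm42047 has the lowest left sedentary mean, 0.969 CPM per kb, with points that overlap those of 4921539H07Rik.

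In the left hippocampus none of the 9 genes passed the test that chose them elsewhere. With edgeR's quasi-likelihood test, 0 of 9 reached an unadjusted p under 0.05 in either direction, while 1.14% of 17750 genes were called higher and 0.98% lower in ELE and 3.94% had an unadjusted p under 0.05. No gene of the 17750 had an adjusted p under 0.05, also with DESeq2. ELE was higher for 7 of 9 members, against 50.9% of all genes, and the median log2 fold change was 0.07 in the members and 0.0035 over all genes. ELE libraries were all above the sedentary ones for 1 of 9, Il1rap, against 5.39% of all genes, and all below for none, against 5.43%. Exact permutation tests of 3 against 3 libraries cannot go below p = 0.1.

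Il1rap came closest to a separation on the left. It measured 27.9, 29.6 and 32.6 CPM in the 3 left ELE libraries and 25.9, 26.5 and 26.7 CPM in the sedentary ones. The groups did not touch, and the sedentary mice were within 1 CPM of each other. The log2 fold change was 0.18 ± 0.0929 (SE, 95% interval -0.03 to 0.40, 1.14-fold), with an unadjusted p of 0.081 and an adjusted p of 0.96 in edgeR's quasi-likelihood test and a two-sided exact permutation p of 0.1. Without TG9.1.4 it was 0.23, with an unadjusted p of 0.0339 and an adjusted p of 0.856 in edgeR. On the right, ELE libraries held 37.0, 41.8 and 44.1 CPM and sedentary libraries 27.4, 31.3 and 32.5 CPM, a log2 difference of 0.43. In SIT, ELE libraries held 39.6, 39.9 and 40.1 CPM and sedentary libraries 25.4 and 32.5 CPM, a difference of 0.46. Thus the lowest ELE library stood above the highest sedentary one in each set, by the smallest step on the left. Without the sedentary mouse NT6.306 the SIT difference was 0.29. Over all 8 SIT libraries the direction turned to -0.10, since sedentary mouse NT7.2.3 held 56.7 CPM, NT7.2.4 held 46.5 CPM and the ELE mouse NT6.304 held 29.9 CPM. Microglial markers summed to 213 and 223 CPM in those sedentary mice and to at most 9.81 CPM in every other library, and their part in the Il1rap level was not tested.

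Gpr83, the other receptor, varied most between left ELE mice. The left ELE libraries held 11.3, 16.5 and 30.6 CPM and the left sedentary ones 13.3, 15.4 and 18.2 CPM. The lowest and the highest of the 6 values were both from ELE mice, TG7.3.2 and TG9.1.4. The log2 fold change was 0.32 ± 0.323 (SE, 95% interval -0.42 to 1.06), with an unadjusted p of 0.353 and an adjusted p of 0.96 in edgeR and a two-sided exact permutation p of 0.8. Without TG9.1.4 it was -0.17, and without TG7.3.2 it was 0.59 with an unadjusted p of 0.0479 and an adjusted p of 0.643 in edgeR. No other member was called when a left library was left out. Right ELE libraries lay close together, at 18.1, 18.8 and 19.2 CPM, above right sedentary libraries at 11.9, 13.6 and 15.4 CPM, a log2 difference of 0.46. SIT gave 14.0, 14.3 and 19.0 CPM in ELE and 11.1 and 11.5 CPM in sedentary mice, a difference of 0.49, against 0.09 over all 8 libraries.

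Ptgs2 was higher in 2 of 3 left ELE mice. Its left values were 21.2, 29.0 and 29.8 CPM in ELE and 21.8, 22.5 and 23.5 CPM in sedentary mice. The remaining ELE mouse lay below all 3 sedentary ones, so the groups overlapped. The log2 fold change was 0.24 ± 0.139 (SE, 95% interval -0.08 to 0.56, 1.18-fold), with an unadjusted p of 0.12 and an adjusted p of 0.96 in edgeR and a two-sided exact permutation p of 0.4. Without TG7.3.2, the low ELE mouse, it was 0.38 with an unadjusted p of 0.00675 and an adjusted p of 0.643 in edgeR, just under the 1.3-fold threshold, and without TG9.1.4 it was 0.15. Right ELE libraries held 29.2, 33.9 and 35.0 CPM against 17.5, 24.6 and 28.8 CPM, a difference of 0.47, and SIT ELE libraries 24.2, 31.1 and 34.8 CPM against 20.7 and 23.8 CPM, a difference of 0.43. The groups stood apart in both sets by less than 1 CPM. The highest value of all 20 libraries, 79.8 CPM, came from the SIT ELE mouse NT6.304 outside the study's comparison, in which Fos, an immediate early gene, was at 613 CPM against 4.96 to 34.5 CPM in the other libraries.

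Klk8 did not separate on the left. Left ELE libraries held 19.1, 25.7 and 30.4 CPM and left sedentary libraries 23.3, 24 and 25.5 CPM. ELE mice lay on both sides of the narrow sedentary range. Its log2 fold change was 0.04 ± 0.161 (SE, 95% interval -0.33 to 0.41), with an unadjusted p of 0.791 and an adjusted p of 0.986 in edgeR. On the right the values were 29.8, 31.0 and 36.5 CPM in ELE and 18.9, 23.9 and 24.4 CPM in sedentary mice, a difference of 0.53. SIT held 27.0, 27.3 and 32.7 CPM against 18.4 and 22.4 CPM, a difference of 0.51. Over all 8 SIT libraries its difference was 0.66. There 4 of 9 members passed the rule for a call, Klk8, Zfp946, 4921539H07Rik and Gm35161, and 5 did not, where 2.39% of 17531 genes were called higher. ELE libraries were all above sedentary ones for 3 members, all of these but 4921539H07Rik, against 1.9% of genes. Since 5 of these 8 libraries chose the genes, nothing is read from these counts.

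Inf2 differed widely within both left groups. The left libraries held 106, 132 and 172 CPM in ELE and 104, 109 and 166 CPM in sedentary mice. Each group had 1 high library. ELE exceeded sedentary by a log2 fold change of 0.11 ± 0.215 (SE, 95% interval -0.38 to 0.60), with an unadjusted p of 0.625 and an adjusted p of 0.972 in edgeR. Right ELE libraries, at 190, 218 and 225 CPM, were above each left library and above right sedentary libraries at 117, 141 and 163 CPM, a difference of 0.59. SIT gave 131, 145 and 159 CPM in ELE and 107 and 111 CPM in sedentary mice, a difference of 0.41, and 0.22 over all 8 libraries.

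Zfp946 was level on the left. ELE libraries held 8.64, 9.61 and 10.4 CPM and sedentary libraries 8.17, 9.70 and 10.5 CPM. The sedentary range enclosed the ELE range. A log2 fold change of 0.01 ± 0.151 (SE, 95% interval -0.34 to 0.36) was measured, with an unadjusted p of 0.947 and an adjusted p of 0.997 in edgeR. It was also the member nearest to the threshold of the choice, with a larger unadjusted p of 0.0436 over both choosing sets, and Hectd2, with 0.0511, was the gene just outside. Right libraries held 8.87, 9.94 and 13.8 CPM in ELE and 5.42, 7.83 and 9.28 CPM in sedentary mice, which overlapped, for a difference of 0.53 that was 0.32 without TG9.2.1 and 0.35 without TG7.3.3. SIT libraries held 13.7, 14.5 and 15 CPM against 8.51 and 12 CPM, a difference of 0.49. With 1 sedentary library left in SIT, the difference was 0.26 without NT6.305 and 0.76 without NT6.306.

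The 3 non-coding genes had the largest differences in the sets that chose them and no common direction on the left. Their standard errors in SIT were 0.318 to 0.37, against 0.11 to 0.196 for the other members. With larger errors a gene needs a larger difference to be chosen, so nothing is read from this ranking. The lincRNA 4921539H07Rik held 4.42, 5.61 and 9.12 CPM in left ELE and 5.93, 6.04 and 6.26 CPM in left sedentary libraries. A single ELE mouse was above the sedentary range and the others were below it, and the log2 fold change was 0.07 ± 0.258 (SE, 95% interval -0.52 to 0.66, unadjusted p = 0.795 and adjusted p = 0.986 in edgeR). Right ELE libraries held 9.99, 10.0 and 11.6 CPM and right sedentary libraries 5.20, 5.22 and 7.38 CPM, a difference of 0.83. In SIT the mouse NT6.303 held 4.93 CPM, just above the sedentary values of 4.69 and 4.90 CPM, while the other ELE mice held 9.21 and 10.8 CPM, a difference of 0.79.

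Gm42047 held 3.34, 4.66 and 6.67 CPM in left ELE and 2.79, 5.67 and 7.96 CPM in left sedentary libraries. The sedentary mice enclosed the ELE mice, and the log2 fold change was -0.17 ± 0.388 (SE, 95% interval -1.05 to 0.72, unadjusted p = 0.681 and adjusted p = 0.976 in edgeR). Right values were 4.67, 5.55 and 8.18 CPM in ELE and 2.34, 3.54 and 5.08 CPM in sedentary mice, overlapping, with a difference of 0.75 that was 0.48 without TG9.2.1. SIT values were 3.34, 4.78 and 7 CPM against 2.00 and 3.21 CPM, a difference of 0.95. It was 0.64 to 1.33 when 1 of these libraries was left out and 0.59 over all 8. Gm35161, with the lowest CPM of the 9, held 1.75, 1.96 and 2.09 CPM in left ELE and 1.66, 1.9 and 3.17 CPM in left sedentary libraries. The highest value was sedentary, and the log2 fold change was -0.21 ± 0.304 (SE, 95% interval -0.91 to 0.48, unadjusted p = 0.5 and adjusted p = 0.966 in edgeR). On the right it held 2.79, 3.5 and 3.54 CPM against 1.38, 1.56 and 2.50 CPM, a difference of 0.86, and in SIT 3.00, 3.37 and 3.93 CPM against 1.71 and 2.32 CPM, a difference of 0.77 that was 1.17 over all 8 SIT libraries. Adcy2, on its other strand, was at 171 ± 31.4 CPM in left ELE and 174 ± 8.77 CPM in left sedentary libraries (SD, n = 3).

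**Figure D2:**
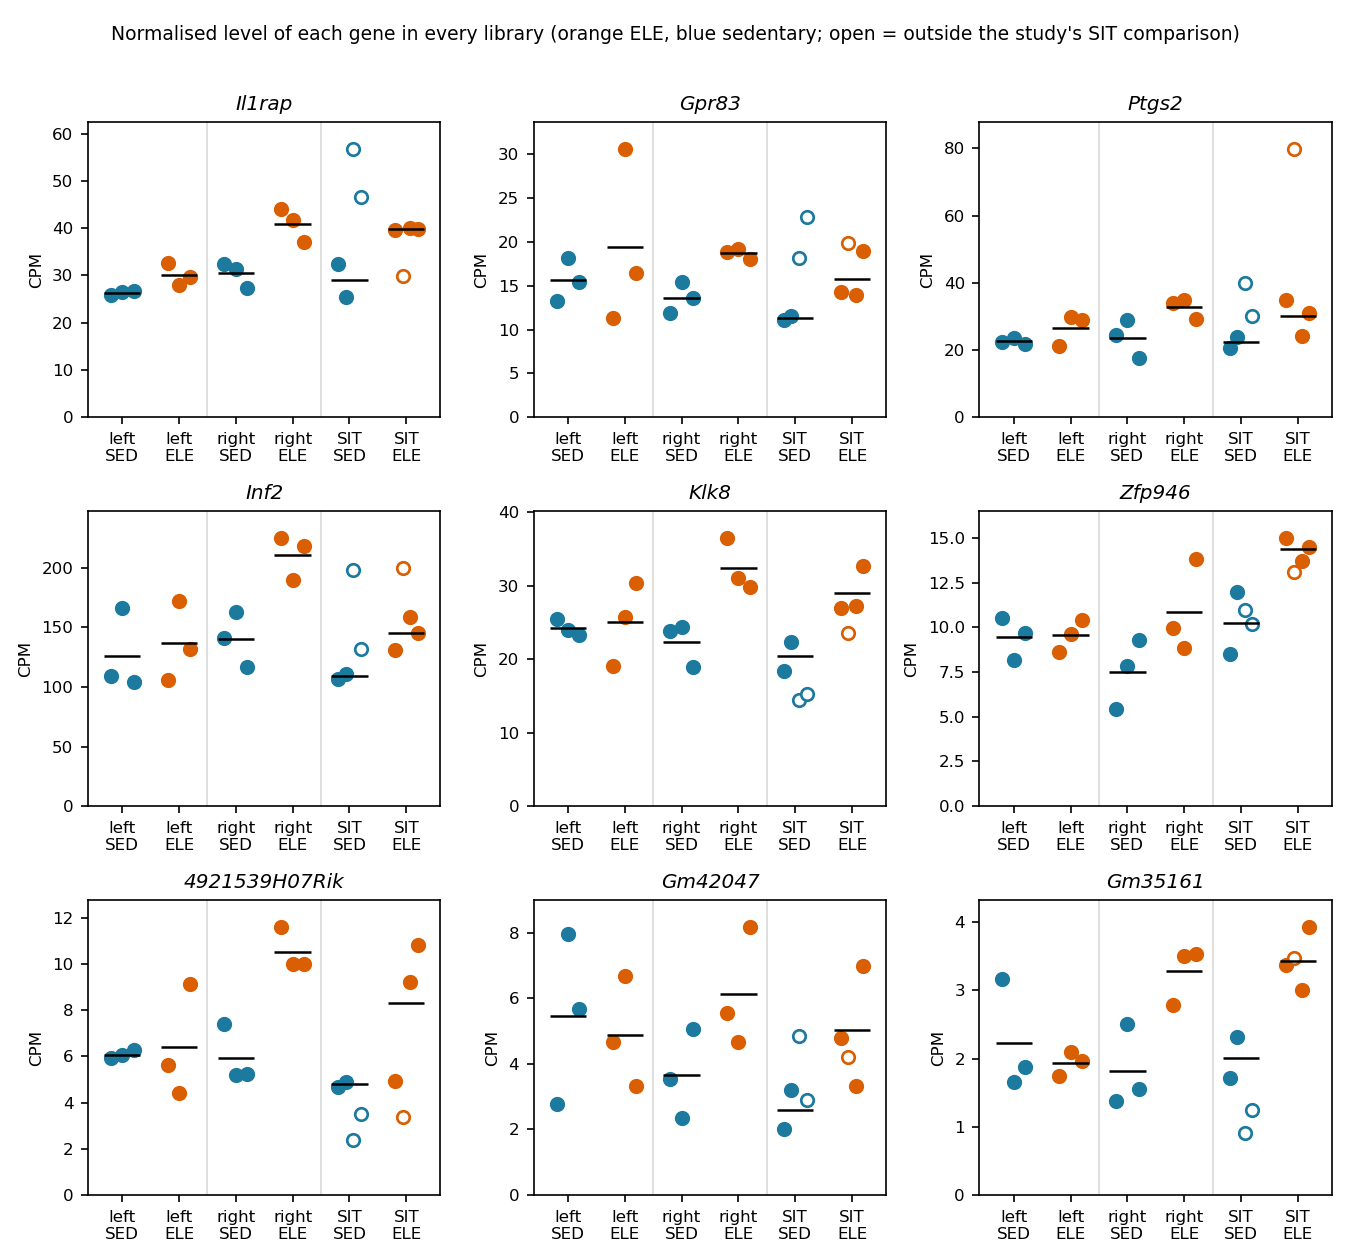
CPM of each gene in all 20 libraries, from 0, with 1 point per library, orange for ELE and blue for sedentary, and bars at the mean of the filled points. Open points are the 3 SIT libraries outside the study's comparison, among them the Ptgs2 value of 79.8 CPM. On the right and in SIT the filled ELE points lie above the sedentary ones for most genes, which is how the genes were chosen, and on the left they overlap for 8 of 9.

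By choice, all 9 genes were called higher in ELE on the right, where 0.746% of 17570 genes were, and in the 5 SIT libraries, where 1.57% of 18238 genes were. ELE libraries were all above sedentary ones for 7 of 9 members on the right, against 3.8% of genes, and for 9 of 9 in SIT, against 10.4%. Nothing is read from these counts. The sedentary mouse TG9.2.3, high in choroid plexus markers, was the lowest right library for Il1rap, Ptgs2, Inf2 and Klk8, and without it their right log2 differences were 0.36, 0.29, 0.48 and 0.42, under the 1.3-fold threshold for Il1rap and Ptgs2. The same mouse was the highest right sedentary library for Zfp946 and Gm42047, whose differences were 0.72 and 1.06 without it. The sedentary mouse TG7.3.3 held endothelial markers at 25.6 CPM, against 1.51 to 3.6 CPM in the other right libraries. It was the lowest right library for Gpr83, Zfp946 and Gm35161, whose differences were 0.37, 0.35 and 0.69 without it. These were under the 1.3-fold threshold for Gpr83 and Zfp946, as was Il1rap, at 0.3748, without the ELE mouse TG7.3.1. The part of either marker set in the right values was not tested. The estimate on the left was below both choosing estimates for 9 of 9 genes. The upper end of the left 95% interval lay below both estimates for 6 genes, namely Il1rap, Klk8, Zfp946 and the 3 non-coding genes, and it reached them for Gpr83, Ptgs2 and Inf2. The right and SIT values had to pass a threshold for a gene to be included and the left values did not, so this gap was not tested. The left interval still reached a 1.3-fold rise for 8 of 9 genes, all but Zfp946, so a rise of that size was not resolved at 3 mice per group.

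**Figure D3:**
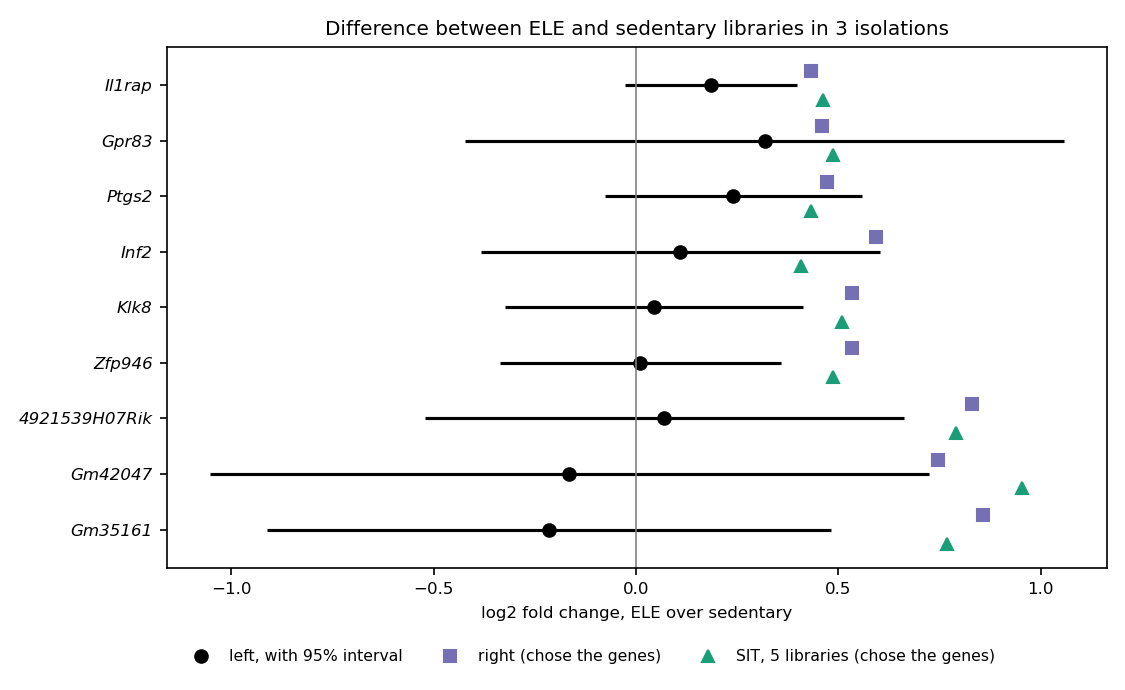
Log2 fold change of ELE over sedentary for each gene on the left (black circles, with 95% intervals from edgeR), the right (squares) and in the 5 SIT libraries (triangles). Every left interval crosses 0, and each left point lies below the right and SIT points that chose the gene.

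To ask whether the members moved together from mouse to mouse, log2 CPM was centred within each group of the 12 separate libraries and correlated between members. The median Pearson r over 36 pairs was 0.0766, with 19 pairs above 0, against -4e-04 over all pairs of 14124 genes. The closest pairs were Ptgs2 with Klk8, r = 0.81 over the 12 libraries and 0.88 over the 6 left ones, and Gpr83 with Inf2, 0.75 and 0.83. At the other end, Il1rap and Zfp946 had r = -0.77 over 12 and -0.48 over 6 libraries. Il1rap with Ptgs2 went from 0.26 to -0.92 between the 12 libraries and the 6 left ones. These values describe points that share scaling and group means and were not tested.

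Of all 14124 genes, the one most alike to Inf2 over the 12 libraries was Dgkz, which encodes a diacylglycerol kinase, with r = 0.97. Gpr83 was most alike to Kcnk1, a potassium channel gene, with r = 0.95, Ptgs2 to the nucleoporin gene Aaas and Klk8 to the protocadherin gene Pcdhgc5, both with r = 0.90. Zfp946 was most alike to another zinc finger gene, Zfp40, and 4921539H07Rik to Gm3888, both with r = 0.89, and Il1rap to the synaptic scaffold gene Dlg3, with r = 0.88. Gm42047 and Gm35161 were most alike to Pfkfb2 and Eef1akmt1, both with r = 0.86. None of these 9 genes was itself a member. Here log2 CPM was not centred within groups, so each r includes the right difference that chose the members. Each r is also the highest over all genes compared, which is high by selection, and none was tested.

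Genes that work beside the members were then examined on the left. Of 21 listed genes of the interleukin-1 receptor family and its signalling, 13 could be tested, with 1 called higher and none lower in ELE, where 1.14% and 0.98% of all genes were, and a median log2 fold change of 0.09. The one called was Il1r1, the receptor that binds interleukin-1 and signals with the Il1rap product. It measured 10.8, 11.3 and 27.4 CPM in left ELE and 5.61, 6.12 and 7.47 CPM in left sedentary libraries. The groups did not overlap, and TG9.1.4 was far above the others. The log2 fold change was 1.36 ± 0.353 (SE), with an unadjusted p of 0.00446 and an adjusted p of 0.96 in edgeR, and 0.78 with an unadjusted p of 0.00103 and an adjusted p of 0.856 without TG9.1.4. On the right Il1r1 measured 11.3, 12.4 and 15.5 CPM in ELE and 8.08, 11.7 and 17.9 CPM in sedentary mice, which overlapped, a log2 difference of 0.06. In SIT it measured 8.18, 12.2 and 14.8 CPM in ELE and 5.1 and 8.88 CPM in sedentary mice. These overlapped as well, with a log2 difference of 0.75. The difference between hemispheres was not tested. Il1rapl1 and the Il1rap partner Ptprd had log2 fold changes of 0.15 and -0.05 on the left and passed no test.

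Around Ptgs2, 17 of 20 genes of prostaglandin synthesis and its receptors could be tested and none was called, with a median of -0.04. Ptgs1, the constitutive cyclooxygenase gene, had a log2 fold change of 0.18, the prostaglandin E synthase gene Ptges 0.45 and the receptor gene Ptger3 0.16. Over the 17 genes log2 fold changes ran from -1.28 for the receptor gene Ptgfr to 2.44 for Hpgd, which encodes a prostaglandin-degrading enzyme, at 5.11 ± 7.8 CPM in left ELE and 0.94 ± 0.177 CPM in left sedentary libraries (SD, n = 3). Hpgd had an unadjusted p of 0.0616 and an adjusted p of 0.96 in edgeR. Both were named after their values were seen, as the ends of the range. Ptgs2os, a non-coding gene on the other strand 67 bases from Ptgs2, measured 0.951, 1.56 and 2.12 CPM in left ELE and 0.434, 0.814 and 1.03 CPM in sedentary libraries. The groups overlapped, with a log2 fold change of 1.02 ± 0.447 (SE, unadjusted p = 0.0515 and adjusted p = 0.96 in edgeR). Among 14 formins none was called, with a median of 0.01, and Diaph1 and Fmnl2 had log2 fold changes of -0.14 and 0.06. Of 18 genes listed around Klk8, namely kallikrein-related peptidases, substrates and receptor genes such as Erbb4, 9 were tested, with a median of -0.0059. Of these 1, Erbb4, was called lower, where 0.98% of all genes were. Erbb4, a neuregulin receptor gene, held 3.10, 3.53 and 3.85 CPM in left ELE and 4.6, 4.61 and 4.77 CPM in sedentary libraries, a log2 fold change of -0.42 ± 0.179 (SE, unadjusted p = 0.0475 and adjusted p = 0.96 in edgeR). The call was lost with DESeq2 (unadjusted p = 0.0765), without a filter (0.0895), in the fit of 12 libraries (0.149), with the replicate block (0.074) and when any of 5 of the 6 libraries was left out, while the log2 fold change stayed between -0.43 and -0.34 in all these fits. L1cam, an adhesion molecule that neuropsin cleaves, had a log2 fold change of -0.08. For Gpr83, 6 of 7 genes of proSAAS and its processing were tested and none was called, with a median of -0.03. Pcsk1n, the proSAAS gene, held 914, 937 and 968 CPM in left ELE and 1070, 1080 and 1100 CPM in sedentary libraries. The groups did not overlap, but the change of -0.21 ± 0.0620 (SE, unadjusted p = 0.00927 and adjusted p = 0.96 in edgeR) was under 1.3-fold.

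Activity-regulated genes, among which Ptgs2 is often counted, were also examined on the left. Of 32 such genes other than Ptgs2, 5 were called higher and none lower, where 1.14% and 0.98% of all genes were, with a median of 0.27 against 0.0035 over all genes. They were Fos, with a log2 fold change of 1.3, Egr3 with 0.61, Inhba with 1.93, Gadd45g with 0.93 and Sik1 with 0.77. Fos measured 6.82, 11.6 and 34.5 CPM in left ELE and 4.96, 7.21 and 9.24 CPM in sedentary libraries. The highest value was again that of TG9.1.4, and ELE overlapped sedentary. Without that library Fos was at 0.36, Egr3 at 0.17, Inhba at 0.31 and Gadd45g at 0.26, and none of these 4 was called, while Sik1 was at 0.71 and was called. The Sik1 call was lost without the ELE library TG7.3.2 (0.57, unadjusted p = 0.0589 and adjusted p = 0.645 in edgeR). Without the sedentary library TG7.3.4 none of the 5 was called, although the log2 fold changes were 1.09 for Fos, 0.58 for Egr3, 1.73 for Inhba, 0.85 for Gadd45g and 0.61 for Sik1. Without the sedentary library TG9.1.2 only Sik1 was called, and without TG9.2.4, also sedentary, only Fos and Sik1 were. With DESeq2 Inhba and Sik1 were called, and Fos, Egr3 and Gadd45g were not, at nearly the same log2 fold changes of 1.3, 0.61 and 0.93. With a replicate block on how the mouse number begins Egr3, Gadd45g and Sik1 were called. Under that block Fos was at 1.03 and Inhba at 1.279, with unadjusted p of 0.0732 and 0.0514 (adjusted p = 0.911 in edgeR for both). TG9.1.4 also had the highest left level of Gpr83, Ptgs2 and Inf2. What this library contributed to other members was not tested beyond leaving it out. Nr4a1, called with the members on the right and in SIT, measured 42.5, 44.3 and 54.8 CPM in left ELE and 44.0, 46.0 and 48.3 CPM in left sedentary libraries. Its left log2 fold change was 0.03 ± 0.111 (SE, unadjusted p = 0.784 and adjusted p = 0.986 in edgeR).

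**Figure D4:**
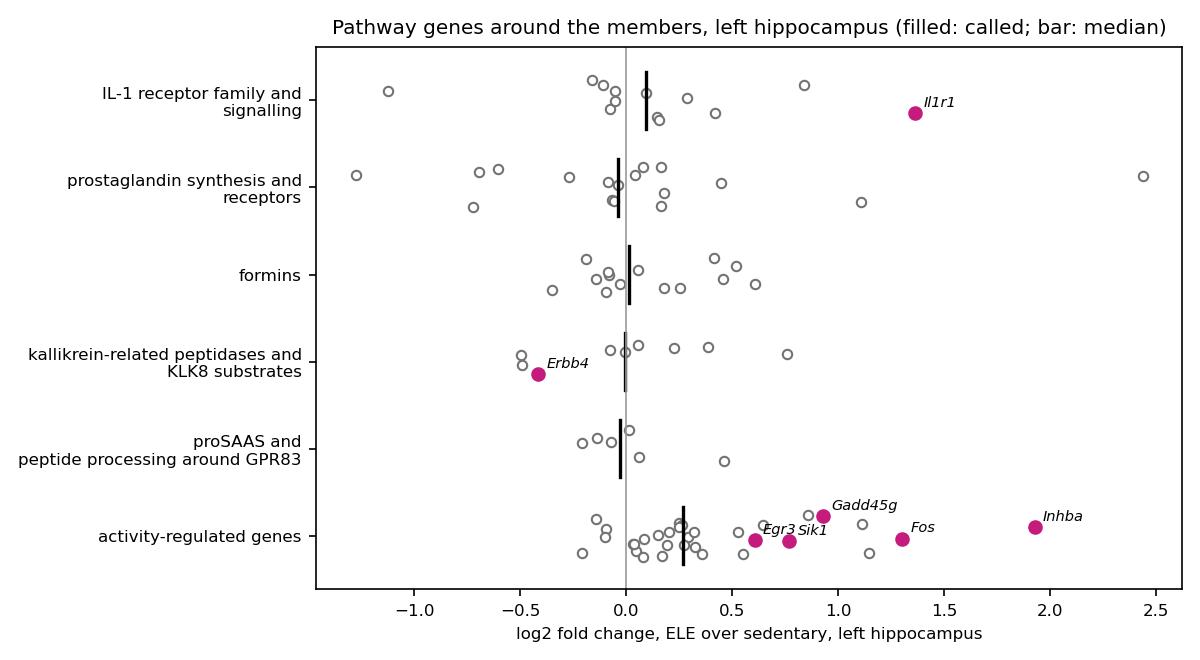
Log2 fold change of ELE over sedentary on the left for the tested genes of 6 lists around the members. Filled points are called genes, open points are not, and black bars are list medians, the highest of which is 0.27 for activity-regulated genes.

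No gene next to the members that could be tested on the left was called. Gm20319, 1700007F19Rik, Gm20388, Gm24283, Gm26812, Gm48593 and Gm37122 were not tested there. 2310002F09Rik, antisense to Klk8, was at 11.8 ± 3.14 CPM in ELE and 12.2 ± 1.57 CPM in sedentary libraries (SD, n = 3). Klk9 and Klk7, kallikrein genes beside Klk8, were under 1 CPM on average in both left groups. Adssl1 near Inf2 and Klhdc4 near Gm42047 had log2 fold changes of 0.35 and 0.28. Antisense Gm20319, which overlaps Il1rap, had at most 1 count in any library, and Gm20388, which encloses Gm42047, had 0.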

How the data were processed

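Reads of the TRAP-seq libraries were checked with FastQC 0.11.9, aligned to GRCm38 with STAR 2.7.3a and freed of duplicates with Picard 1.87 by the authors, who counted read pairs per gene on the annotated strand. The deposited values are raw counts without normalization, 1 column per mouse. Columns were assigned to groups from the study's list of mice. The 24 columns of a wild-type table could not be matched to samples and were not used. Identifiers were matched to GENCODE for GRCm38 (55154 of 55335 genes without version).

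Counts were filtered with filterByExpr, scaled with TMM and tested with edgeR 4.0.16 (quasi-likelihood, R 4.3.3), fitting only the 6 left libraries, with adjustment by Benjamini-Hochberg over all genes. A gene was called at an unadjusted p under 0.05 and a 1.3-fold change (0.3785 on the log2 scale). The left replicates were separate mice, which over all genes differed by more than counting error. Exact permutation tests used log2 CPM with a pseudocount of 0.5. Fits were tested on simulated data. Members and lists were chosen with earlier results of these data known. Named were the members, list genes called on the left, 11 set genes of the same pathways, genes within 10 kb and the most alike gene with mean CPM of at least 1. Alternatives were DESeq2 1.42.0, median-of-ratios scaling, no filter, a fit of 12 libraries, a replicate block, all 8 SIT libraries and leaving out each library.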

Additional observations from a re-analysis of the deposited data

Results flagged for a closer look

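Each member was examined in both groups of 4 SIT libraries, 18 in all, for a highest or lowest library whose gap to its neighbour was, as a share of the group's range, above Dixon's 95% critical value. Il1rap alone passed, with 0.956. The ELE mouse NT6.304 held 29.9 CPM, while the other SIT ELE mice held 39.6, 39.9 and 40.1 CPM. This library was outside the study's comparison. The 3 other values were among those that chose Il1rap, so the gap is a description and the usual error rate of the criterion does not apply. Ptgs2 in the same library, 79.8 CPM against 24.2, 31.1 and 34.8 CPM, lay further off by fold but did not pass.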

How the results depend on the processing

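On the left no member was called under DESeq2, median-of-ratios scaling, no filter, the fit of all 12 separate libraries or the replicate block. The count of all genes called there went from 376 to 566 with DESeq2 and 703 without a filter, and to between 225 and 975 when 1 library was left out. The count of list genes called went from 7 to 12 without a filter and 4 with the block, and to between 1 and 16 when 1 library was left out, and that of members to between 0 and 1. The direction turned in at least 1 of 6 such fits for 7 members, whose log2 fold changes ranged from -0.17 to 0.59 for Gpr83, -0.091 to 0.35 for Inf2, -0.12 to 0.20 for Klk8, -0.086 to 0.090 for Zfp946, -0.28 to 0.27 for 4921539H07Rik, -0.48 to 0.21 for Gm42047 and -0.39 to 0.12 for Gm35161. Il1rap kept its direction, from 0.12 to 0.23, as did Ptgs2, from 0.15 to 0.38. Over all 8 SIT libraries Il1rap turned to -0.10. The median over members stayed between 0.46 and 0.66 in SIT and between 0.48 and 0.66 on the right. Members had to pass a threshold in these libraries, so medians of this size were largely set by the choice. The causes were not tested.

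The first part of the mouse number is shared by 1 ELE and 1 sedentary mouse on each side. Deviations of such mice had r of 0.20, 0.11 and 0.02 on the left, against -0.17 to 0.06 for mice of unlike number. On the right they had r of -0.07, -0.08 and 0.22, against -0.22 to 0.27. The study divided male mice of the same litters between the conditions, and whether these numbers mark litters was not tested. The main fit did not pair the mice, and the block was run as an alternative. With this replicate block the median log2 fold change of the members on the left was 0.02 in place of 0.07.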
